A study of Mus musculus with 8 samples.

Results

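Nuclei of HL1 cells were separated into a chromatin pellet and a soluble nucleoplasm, and the RNA that diverges from the promoters of protein-coding genes was followed in both fractions. HL1 is a mouse atrial cardiomyocyte line derived from the AT-1 tumour lineage, and all libraries come from that line, grown in Claycomb medium with serum and norepinephrine, with no other treatment given in the labels. Short-read libraries were made from 3 chromatin and 3 nucleoplasm samples of 3 separate cultures, and 2 long-read (nanopore direct cDNA) libraries came from chromatin only. Of 65265 rows in the short-read gene table, 20637 carried a name given by the assembler rather than a database, and 332 of these were taken as divergent loci. A locus had to lie on an autosome, share no base with a GENCODE M21 gene on its own strand, and start within 2000 bp of the start of a protein-coding gene on the opposite strand, here called its partner. It also had to lie more than 5000 bp beyond the 3′ end of any coding gene on its strand, and to be above 0 in at least 1 of the 6 short-read libraries. These values chose the loci, so being detected is part of their definition. A further 57 autosomal positions met the rule except that all 6 values were 0, 17 were left out for lying within 5000 bp past a coding gene, and 10 lay on chromosome X.

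Many promoters of mammalian genes fire in both directions, so RNA polymerase II that starts at a coding gene is often matched by a second polymerase that runs the other way. The resulting upstream antisense RNAs are usually short-lived, because early polyadenylation signals end them and the nuclear exosome degrades them, whereas the U1 snRNP protects the coding direction. RNA still held by the polymerase sediments with chromatin, and released, processed RNA is found in the nucleoplasm before export.

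The name unannotated holds for these loci only with respect to GENCODE. The long-read table also lists RefSeq transcript models under their own identifiers, and 252 of the 332 loci (75.9%) shared bases with such a model on their own strand. For 203 loci the first and last base were exactly those of a model, and 234 loci started within 100 bp of a model's start. The models were noncoding at 223 loci, 205 of them computer-predicted only, and at least 1 coding model was present at 29. The RefSeq gene table for GRCm38.p6 still named the model's gene at 172 of these loci. The remaining 80 loci had no model in either annotation. They were a different kind of locus in length and place, with a median span of 341 bp (quartiles 261 and 467) against 4408 bp (1847 and 10523) for the 252, and with a median distance of 924 bp between the starts against 170 bp. Among other assembled loci outside GENCODE genes, a RefSeq model was present for 61.8% of 892 antisense to a coding gene elsewhere, 39.4% of 180 just past a coding gene and 16.8% of 1634 further away.

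By their assembled starts, the loci clustered just upstream of their partners. The assembly was guided, and 203 loci have exactly a RefSeq model's span, so many starts can be the model's and were not measured independently. Head-to-head loci, whose start lies upstream of the partner's start, numbered 198, and the other 134 started downstream of the partner's start on the opposite strand. Of these, 3 started beyond the partner's 3′ end and the rest within its body, and 111 ran out across the partner's start. The head-to-head distance had a median of 180 bp (quartiles 90 and 548), and 118 loci started within 250 bp. Of those 118, 113 had a RefSeq model. Of the 80 loci without a model, 5 lay in that window. At the edge of the rule, the outermost loci inside it started 1984 bp from Ctrc (mean 0.175 normalized counts) and 1977 bp from Sit1 (mean 17.6), and the nearest outside it started 2001 bp from Nup205 and from Ddx21, with means of 80.9 and 197. The lowest locus, opposite Dapk1, had a mean of 0.169.

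**Figure D1:**
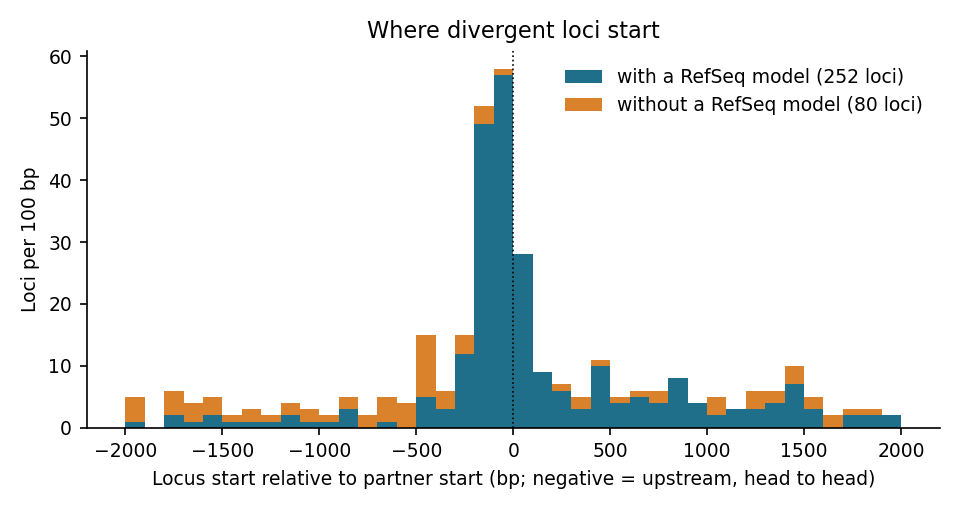
Number of divergent loci per 100 bp of the signed distance from the partner's start to the locus's start, in bp, with negative values upstream (head to head) and colours for the 252 loci with and the 80 without a RefSeq model. The peak just upstream of the partner's start is formed by loci with a model, whose starts can be the model's own. Loci without one are spread over the whole 2000 bp on either side.

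Sequences that hold both divergent starts are shown for the named pairs for which a promoter window covered both first bases. Both assigned starts lie within these 300 bases, so a reader can see the distance between them. They are RefSeq windows on GRCm38.p6, from 250 bases before to 50 after a RefSeq start, written 5′ to 3′ in the direction of the gene that names them. Capitals mark GGGCGG (the core of the GC box), CCAAT and TATAAA on either strand. The first, chr17:35000697-35000996 on the minus strand, belongs to D17H6S56E-5, the RefSeq gene of the locus itself, with the locus's first base at position 251 and that of Vars at position 10. In the other windows, named by the partner, the locus and partner start at positions 155 and 291 for Med26 (chr8:72548261-72548560, minus strand), 95 and 251 for Selenoi (chr5:30232331-30232630, plus strand), and 161 and 235 for Cr1l (chr1:195131521-195131820, minus strand).
D17H6S56E-5 and Vars: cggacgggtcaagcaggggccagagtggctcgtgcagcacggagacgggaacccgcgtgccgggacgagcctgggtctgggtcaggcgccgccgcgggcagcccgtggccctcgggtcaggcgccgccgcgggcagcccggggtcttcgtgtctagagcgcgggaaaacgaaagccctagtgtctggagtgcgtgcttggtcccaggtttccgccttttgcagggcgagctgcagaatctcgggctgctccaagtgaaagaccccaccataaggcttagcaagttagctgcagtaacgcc
Med26: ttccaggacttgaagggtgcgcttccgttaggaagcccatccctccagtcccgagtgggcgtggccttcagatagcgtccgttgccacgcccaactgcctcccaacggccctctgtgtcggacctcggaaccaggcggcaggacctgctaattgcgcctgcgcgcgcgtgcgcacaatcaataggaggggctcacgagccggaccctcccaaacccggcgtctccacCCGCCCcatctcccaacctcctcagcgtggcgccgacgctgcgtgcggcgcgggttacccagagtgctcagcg
Selenoi: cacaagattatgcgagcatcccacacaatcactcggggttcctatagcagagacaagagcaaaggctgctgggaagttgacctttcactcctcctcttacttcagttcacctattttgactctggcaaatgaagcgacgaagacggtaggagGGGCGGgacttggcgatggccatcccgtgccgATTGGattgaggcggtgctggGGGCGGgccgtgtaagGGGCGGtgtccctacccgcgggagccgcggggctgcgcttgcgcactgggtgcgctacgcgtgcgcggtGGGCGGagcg
Cr1l: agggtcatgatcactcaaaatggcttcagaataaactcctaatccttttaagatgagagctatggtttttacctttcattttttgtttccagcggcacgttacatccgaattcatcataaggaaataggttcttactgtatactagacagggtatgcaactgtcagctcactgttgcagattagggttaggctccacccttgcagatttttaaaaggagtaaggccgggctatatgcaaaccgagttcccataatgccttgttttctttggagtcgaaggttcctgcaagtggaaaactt
The Vars, Med26 and Selenoi windows held 29, 31 and 26 CpG dinucleotides at a GC content of 67%, 67% and 61.7%, whereas the Cr1l window held 6 at 41.3%. GGGCGG or its complement occurred 4 times at Selenoi, 1 time at Med26 and not at Vars or Cr1l, and CCAAT or its complement 1 time at Selenoi. No TATAAA was found in the 4 windows, which says only that these letters are missing from them.

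Across the partners, 185 had a RefSeq window whose start lay within 100 bp of the GENCODE start. These windows had a median GC content of 62.3% and a median of 23 CpG dinucleotides, against 56.3% and 13 for 21262 windows of all coding genes and 52.7% and 7 for all 32851 windows. GGGCGG was present on either strand in 71.4% of partner windows, 46.2% of coding windows and 35.7% of all windows. CCAAT was present in 38.9%, 38.2% and 37.4%. TATAAA was present in 5.95%, 12.6% and 13.6%. In the 82 windows whose locus lay head to head within 250 bp, GGGCGG reached 78% and TATAAA 3.66%. The partners were also well expressed, with a median of 3053 normalized counts over 295 partners against 857 over 14991 measured autosomal coding genes, and 76.3% of partners were above the latter value. Expression and base composition of promoters were not separated here. The windows of all coding genes and of all genes were not held to the 100 bp limit, and its part in the differences was not tested.

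The short-read values are the authors' gene counts divided by size factors, called normalized counts below. Undoing that division gave 91657034 to 121773350 counts per library, which derive from StringTie's abundance estimates rather than from a tally of reads. Levels of the loci were low. Their mean over the 6 libraries had a median of 19.6 normalized counts (quartiles 4.28 and 60), 201 loci reached 10, and 227 were above 0 in every library. In all nucleoplasm libraries 43 loci were at 0, and in all chromatin libraries 4 were. The same counts were not made over all rows, and a value in chromatin alone was enough to admit a locus. These counts are therefore not read as a trait of divergent loci. The replicates are separate cultures, and same-numbered chromatin and nucleoplasm libraries deviated together only weakly (r = 0.119, 0.102 and 0.249).

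Where divergent loci differed between the fractions, they were mostly higher in chromatin. By limma on log2(normalized count + 1), adjusted by Benjamini-Hochberg over 35830 rows, 98 of the 332 loci (29.5%) were higher in chromatin and 10 (3.01%) were lower. Of all rows, 26.9% were higher and 20.9% lower, so in this unpaired fit the share of higher calls was near the background and the share of lower calls below it. Among rows with a mean of at least 10, 38.3% of 201 loci were higher and 4.98% lower, against 32.1% and 30.9% of 23911 rows. With the replicate block, which takes the same-numbered libraries as pairs, 125 loci (37.7%) were higher and 11 (3.31%) lower, against 28.8% and 23.6% of all rows, so the share of higher calls was then above the background. Changes over 4-fold were seen for 59 loci upward (17.8%, against 15.7% of all rows) and 3 downward (0.904%, against 4.90%). The median log2 fold change was 0.91 over the loci and 0.38 over all rows, and 188 loci (56.6%) were higher in chromatin in all 3 same-numbered pairs, against 36.4% of all rows, whereas 24 (7.23%) were lower in all 3, against 28.3%. Both fractions were separated from nuclei of the same cultures. For the level of a locus in such bulk libraries, few molecules in every nucleus and more molecules in fewer cells cannot be told apart. The split between higher and lower depended on the scaling. Quantile normalization, which set the median of all rows to 0.01, gave 50 higher and 19 lower loci against a background of 20.2% and 22.8%, and scaling to the ERCC spike-in RNA, which moved that median to 0.83, gave 145 and 5 against 34.8% and 8.68%. Fewer calls were made than among the other assembled loci, of which 384 of 892 antisense, 79 of 180 downstream and 788 of 1634 more distant loci were higher in chromatin. The last 3 sets were not matched to the divergent loci in level or length, and the difference was not tested.

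Loci with a RefSeq model held most of the higher calls, and loci without one most of the lower calls. Of the 252 with a model, 89 were higher in chromatin (35.3%) and 3 lower (1.19%), with a median log2 fold change of 1.13. Of the 80 without a model, 9 were higher (11.2%) and 7 lower (8.75%), with a median of 0.37. With a model, the replicate block called 100 higher (39.7%) and 4 lower (1.59%). Without a model it called 25 higher (31.2%) and 7 lower (8.75%), so the shares of higher calls then lay closer together. This division was made after the values were seen, and the difference between both kinds of locus was not tested. Among loci with a model, the 113 that lay head to head within 250 bp held 50 higher calls and 1 lower call (median 1.41), and the 139 others held 39 and 2 (median 0.95). The 250 bp limit was also chosen after the values were seen. Loci whose models were noncoding only held 78 higher and 0 lower calls of 223, and loci with a coding model 11 and 3 of 29. For comparison, 554 GENCODE noncoding genes that start within 2000 bp of an opposite-strand coding gene held 218 higher (39.4%) and 44 lower (7.94%) calls in the fit over genes, in which 25.8% of all 19313 genes were higher and 32.2% lower.

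**Figure D2:**
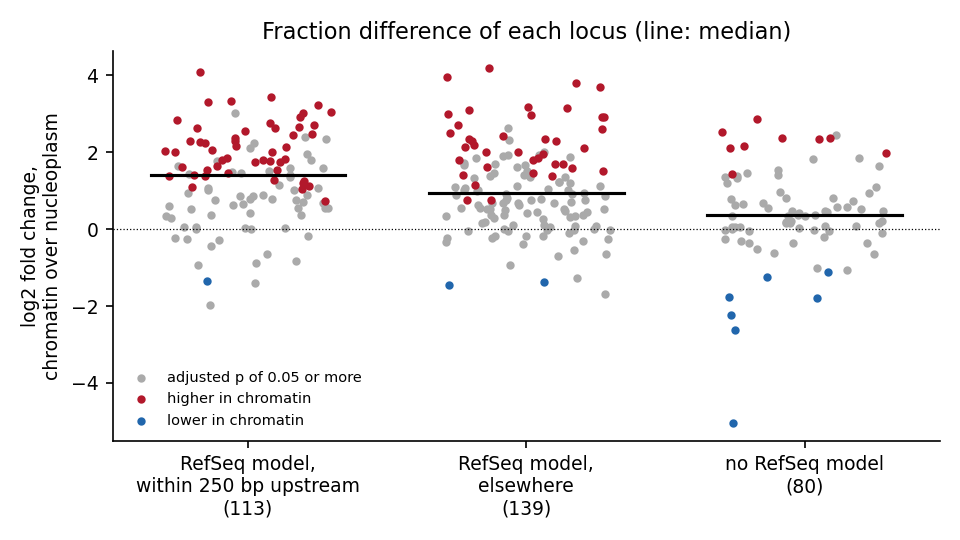
Log2 fold change of chromatin over nucleoplasm for each divergent locus, grouped by whether a RefSeq model exists and whether the locus lies head to head within 250 bp, with colours for the call at an adjusted p under 0.05 (limma) and a black line at each group's median. The medians step down from 1.41 to 0.95 and 0.37, and 7 of the 10 lower calls lie among the loci without a model. The calls are those of the unpaired fit.

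Above 1 kb, the share of higher calls rose with the span of the locus, which is longer for loci with a model. Of 70 loci over 10 kb, 35 were higher and 0 lower, with a median log2 fold change of 1.61. Of 82 loci of 3 to 10 kb, 28 were higher and 1 lower (median 1.13), and of 86 loci of 1 to 3 kb, 24 were higher and 5 lower (median 0.75). Of 27 loci of 500 to 1000 bp, 5 were higher and 2 lower (median 0.82), and of 67 loci of up to 500 bp, 6 were higher and 2 lower (median 0.42). From the longest class to the shortest, 50%, 34.1%, 27.9%, 18.5% and 8.96% were higher. Of all rows, 26.9% were higher and 20.9% lower. With the replicate block, 52.9%, 40.2%, 34.9%, 22.2% and 28.4% were higher, against 28.8% of all rows. Below 1 kb the order thus held in the unpaired shares, but not in the medians or with the block. Span and read number were not separated.

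The locus with the second highest mean lay opposite Vars, the valyl-tRNA synthetase gene. This locus (MSTRG.8025) spanned chr17:34996678-35000746 on the minus strand (mm10), 241 bp upstream of Vars, with exactly the span of a model of the RefSeq coding gene D17H6S56E-5. It reached 9707, 11808 and 7145 normalized counts in chromatin and 27477, 29428 and 16679 in nucleoplasm, so every nucleoplasm library was above every chromatin library. The log2 fold change was -1.35 ± 0.28 (SE, limma adjusted p = 0.00867), and that of Vars itself was -1.23 ± 0.14 (adjusted p = 0.000333). The ratio of the locus to Vars did not change beyond its error (log2 change -0.12 ± 0.39, adjusted p = 0.813). Under ERCC scaling the locus no longer passed the test (-0.61, adjusted p = 0.0559).

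Among loci with a mean of at least 50, the largest rises lay opposite Syne2 and Cep170b. Syne2 encodes a nesprin, a protein of the nuclear envelope that links it to the cytoskeleton. Its locus (MSTRG.4187) chr12:75798665-75816463 on the minus strand (17799 bp, starting 1671 bp upstream) had 3696, 3312 and 2539 normalized counts in chromatin and 249, 212 and 211 in nucleoplasm. The groups did not overlap, with a log2 fold change of 3.81 ± 0.16 (adjusted p = 2.69e-05), and Syne2 itself rose by less (1.17 ± 0.13, adjusted p = 0.000363). A second locus lies around the first on the same strand, spanning 73850 bp and starting 1494 bp inside Syne2, with 156, 134 and 113 against 26.3, 24 and 14.5 normalized counts. Both lie in the RefSeq gene Gm40447, and the assembler may have divided reads between them, so their levels are uncertain. The locus opposite Cep170b (MSTRG.4547, chr12:112711949-112721584, minus strand) starts 1129 bp inside the gene and has exactly the span of a predicted coding model, Gm46382. It had 286, 277 and 181 normalized counts in chromatin against 20.2, 20.4 and 13.8 in nucleoplasm, a log2 fold change of 3.69 ± 0.29 (adjusted p = 0.000142), whereas Cep170b fell by 0.73 on the log2 scale.

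Several of the most abundant loci rose in chromatin while their partner fell. Ccne2 encodes a cyclin E of the G1/S transition. Its head-to-head locus (MSTRG.12493) starts 121 bp away, spans chr4:11175962-11191230 on the minus strand and shares bases with the RefSeq lncRNA A630034I12Rik. It had 3229, 2826 and 2710 normalized counts in chromatin and 488, 445 and 398 in nucleoplasm (log2 fold change 2.72 ± 0.12, adjusted p = 2.7e-05), and Ccne2 changed by -0.58 ± 0.09 (adjusted p = 0.00173). Med26, a Mediator subunit gene, had a locus of 1809, 1808 and 1157 against 849, 795 and 579 (log2 fold change 1.09 ± 0.23, adjusted p = 0.00974), starting 136 bp away at chr8:72548406-72559318, while the gene itself changed by -0.48 ± 0.12 (adjusted p = 0.0133). In the Ccne2 and Med26 pairs the ratio of locus to gene rose as well, by 3.29 ± 0.26 and 1.57 ± 0.38 (adjusted p = 0.000353 and 0.0161).

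The other pairs of this kind among the most abundant loci had no RefSeq model. Hexim2 encodes an inhibitor of the elongation factor P-TEFb. Its locus (MSTRG.3502) chr11:103121788-103132854 on the minus strand starts 425 bp inside the gene and had 2820, 2902 and 1880 normalized counts in chromatin against 449, 448 and 392 in nucleoplasm (log2 fold change 2.53 ± 0.19, adjusted p = 0.000121). Hexim2 had only 83.3, 90.1 and 73.9 against 184, 198 and 165, so the divergent count was above the gene's in every library, with no correction for length. Commd5 had a locus of 974, 873 and 631 against 145, 189 and 139 (log2 fold change 2.37 ± 0.21, adjusted p = 0.00025) at chr15:76896061-76901607 (MSTRG.6526). This locus covers the whole short gene on the other strand and starts beyond its 3′ end, so it is near the promoter by distance but is antisense to the gene rather than upstream of it. Commd5 itself stood at 36.6, 37.7 and 43.7 against 383, 416 and 393, so the pair held the largest rise in ratio among the named loci (5.68 ± 0.33, adjusted p = 0.000268).

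The other rises by the same rule had lower levels. Cr1l, a complement regulator gene, had a head-to-head locus 74 bp away with 227, 204 and 183 normalized counts in chromatin against 29.3, 18 and 16.7 (log2 fold change 3.24 ± 0.28, adjusted p = 0.000208). The locus opposite Abcg2, the gene of a drug efflux transporter, spans 50281 bp and had 426, 368 and 887 against 51.5, 50.3 and 117 (2.92 ± 0.47, adjusted p = 0.00289). The 743 bp locus opposite Ttll13 starts 548 bp inside the gene. It had 121, 97.5 and 284 against 13.1, 16.8 and 34.8 (2.86 ± 0.54, adjusted p = 0.00573). Ttll13 itself rose as well (3.25 ± 0.83, adjusted p = 0.0138), and the ratio did not change beyond its error (-0.39 ± 1.16, adjusted p = 0.8). Abcg2 itself fell (-0.98 ± 0.12, adjusted p = 0.000505). At the Abcg2 and Ttll13 loci replicate 3 was the highest library of both fractions.

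**Figure D3:**
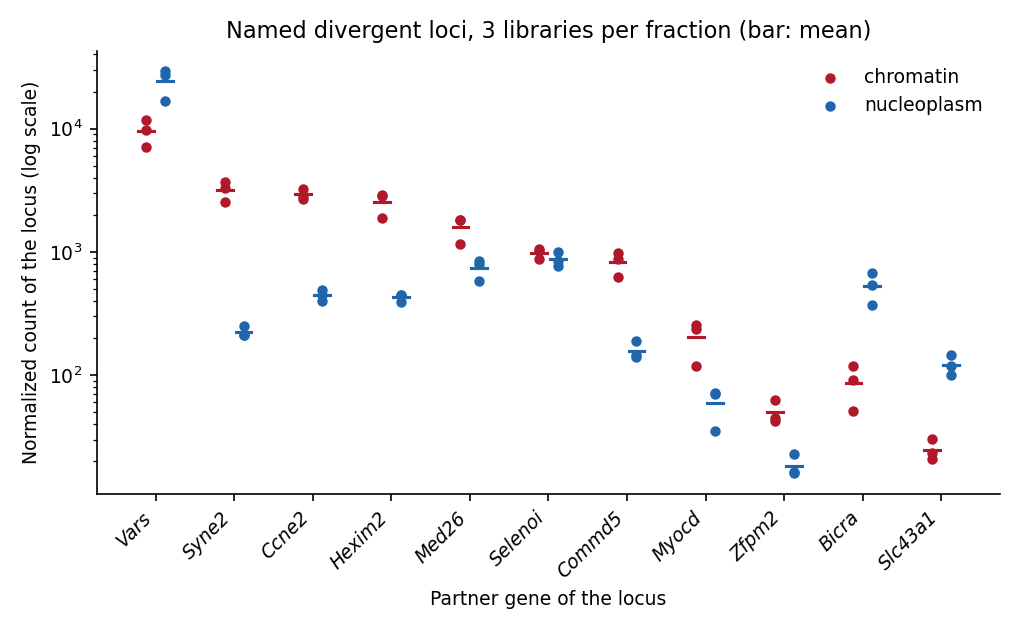
Normalized count (log axis) of 11 named divergent loci, labelled by their partner gene, with a point for each of the 3 chromatin and 3 nucleoplasm libraries and a bar at each mean. Chromatin lies above nucleoplasm at Syne2, Ccne2, Hexim2, Med26, Commd5, Myocd and Zfpm2, below it at Vars, Bicra and Slc43a1, and the groups overlap at Selenoi.

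The falls were few, and 7 of the 10 lower loci had no RefSeq model. Bicra encodes a subunit of a BAF chromatin remodelling complex. Its 675 bp locus (MSTRG.16188, chr7:16048391-16049065, plus strand, 470 bp upstream) had 90.5, 119 and 51 normalized counts in chromatin against 538, 678 and 370 in nucleoplasm (log2 fold change -2.63 ± 0.37, adjusted p = 0.00173), while Bicra changed by 0.20 ± 0.18 (adjusted p = 0.399). Slc43a1, an amino acid transporter gene, had a 1222 bp locus of 23.4, 30.4 and 20.8 against 146, 99.5 and 118 (-2.24 ± 0.26, adjusted p = 0.000773). Ankhd1 had a 1036 bp locus of 79.3, 112 and 59.3 against 326, 313 and 225 (-1.80 ± 0.28, adjusted p = 0.00269), and the gene rose (1.15 ± 0.11, adjusted p = 0.000153). Jagn1 had a 228 bp locus of 80.3, 99.6 and 52 against 230, 307 and 238 (-1.77 ± 0.28, adjusted p = 0.00266), and the gene fell too (-2.20 ± 0.18, adjusted p = 8.49e-05). Unlike the Bicra locus, those of Slc43a1, Ankhd1 and Jagn1 start 1221, 200 and 1787 bp inside the gene. The Slc43a1 and Jagn1 loci lie wholly within the gene, so they are antisense to it rather than upstream of it. The 6 largest falls by rule also hold the Vars and Sspn loci, and the remaining 4 of the 10 lower loci, named because they are few, lay opposite Ptp4a2 (-1.11), Dbndd2 (-1.37), Tbc1d22a (-1.25) and Zfp131 (-1.45).

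The highest value and the largest fall of all belonged to a 341 bp locus (MSTRG.16032) inside Sspn, the sarcospan gene, at chr6:145932747-145933087 on the minus strand. Its normalized counts were 2145, 22912 and 1534 in chromatin and 715353, 36444 and 102621 in nucleoplasm. The groups did not overlap, but the nucleoplasm SD of 374330 exceeded the mean of 284806. The log2 fold change was -5.04 ± 1.44 (adjusted p = 0.0294), and it lost its call without chromatin replicate 1 or 3 (adjusted p = 0.109 and 0.0972), without nucleoplasm replicate 1 or 3 (0.0703 and 0.065), under the replicate block (0.066) and by edgeR (0.0543). With 1 library left out, the value itself lay between -3.86 (without nucleoplasm replicate 1) and -6.26 (without chromatin replicate 2), and it was -6.00 without nucleoplasm replicate 2 and -4.31 without chromatin replicate 3. No long-read transcript lay on its strand, while the opposite strand held 4.63 and 18.6 TPM.

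Of the most abundant loci, 3 did not pass the test. The locus opposite Selenoi, which encodes an ethanolamine phosphotransferase, had 1048, 1025 and 877 normalized counts against 847, 762 and 1002 (log2 fold change 0.18 ± 0.14, adjusted p = 0.342), and it passed as higher in chromatin under ERCC scaling (0.91, adjusted p = 0.0293), after quantile normalization (0.46, adjusted p = 0.02) and without both replicate 3 libraries (0.37, adjusted p = 0.0232). The 574 bp locus opposite Ntf5, a neurotrophin gene, had 614, 1508 and 2530 against 1392, 1680 and 1937 (-0.32 ± 0.50, adjusted p = 0.623), and its sign turned without chromatin replicate 1 (0.24, adjusted p = 0.517). The 354 bp locus opposite 1700064H15Rik had 568, 444 and 1914 against 230, 239 and 518 (1.36 ± 0.62, adjusted p = 0.128, or 0.00821 with the replicate block), and its log2 fold change was 0.72 without chromatin replicate 3 (adjusted p = 0.239). In all 3 the libraries of the fractions overlapped.

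Cardiac regulators were partners of 3 loci. Myocd encodes myocardin, a coactivator of serum response factor in heart and smooth muscle. Its locus starts 21 bp upstream, spans chr11:65270010-65287592 on the plus strand and shares bases with the RefSeq lncRNA Gm30586. It had 237, 255 and 118 normalized counts in chromatin and 70.7, 71.9 and 35.5 in nucleoplasm (log2 fold change 1.75 ± 0.42, adjusted p = 0.0154), a call lost without chromatin replicate 1 (adjusted p = 0.0652) or 2 (0.0588) and after quantile normalization (0.059). Myocd had 69847, 67981 and 39475 against 18199, 16911 and 9355, and the ratio of locus to gene did not differ between fractions beyond its error (-0.26 ± 0.24, adjusted p = 0.398). Replicate 3 was the lowest library of each fraction for locus and gene alike. Zfpm2 encodes a cofactor of GATA factors. Its locus was the longest of all at 124947 bp (Gm33431) and had 42.7, 45.1 and 62.4 against 16.2, 22.8 and 15.9 (1.40 ± 0.31, adjusted p = 0.0107, or 0.33 after quantile normalization), whereas Zfpm2 rose more (2.88 ± 0.19, adjusted p = 4.42e-05) and the ratio fell by 1.48 on the log2 scale (SE 0.34, adjusted p = 0.0141). At Mef2c the locus was listed at 0 in every library except chromatin replicate 3, which had 15.6.

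Fraction differences of the loci and of their partners were set side by side for the 297 loci whose partner had a value. The locus was higher and the partner lower at 33 pairs, both were higher at 24, and the locus was higher with the partner not called at 35. Lower loci had a lower partner at 4 pairs, a higher partner at 1 and an uncalled partner at 4. Of the 295 partners, 91 were higher in chromatin (30.8%) and 108 lower (36.6%), against 25.8% and 32.2% of all genes, with a median log2 fold change of -0.07 against -0.03 over all genes. Across the 297 pairs the 2 fold changes had a Spearman rho of 0.0153 and a Pearson r of 0.0397, given as a description because both values of a pair come from the same 6 libraries.

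The ratio of locus to partner within a library does not depend on the library's scaling, apart from the added count of 1. Its median over the pairs was -6.91, -6.87 and -6.79 on the log2 scale in chromatin and -7.76, -7.68 and -7.64 in nucleoplasm, so the 3 chromatin libraries lay above the 3 nucleoplasm libraries. The median of the fitted differences was 1.14, the medians within same-numbered pairs were 1.06, 1.05 and 1.09 (SD 0.02), and 208 of the 297 loci (70%) had a higher ratio in chromatin. Over all 2498 assembled loci outside GENCODE genes with a coding gene to compare, the median was 1.05 and 69.3% had a higher ratio. A limma fit of the ratios over the same 2498 called 112 divergent pairs higher (37.7%) and 24 lower (8.08%) in chromatin, against 37.7% and 12.2% of all 2498, so the share of higher ratios was that of the background. The partner stood above its locus in mean level at 282 of the 297 pairs, with no correction for length.

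**Figure D4:**
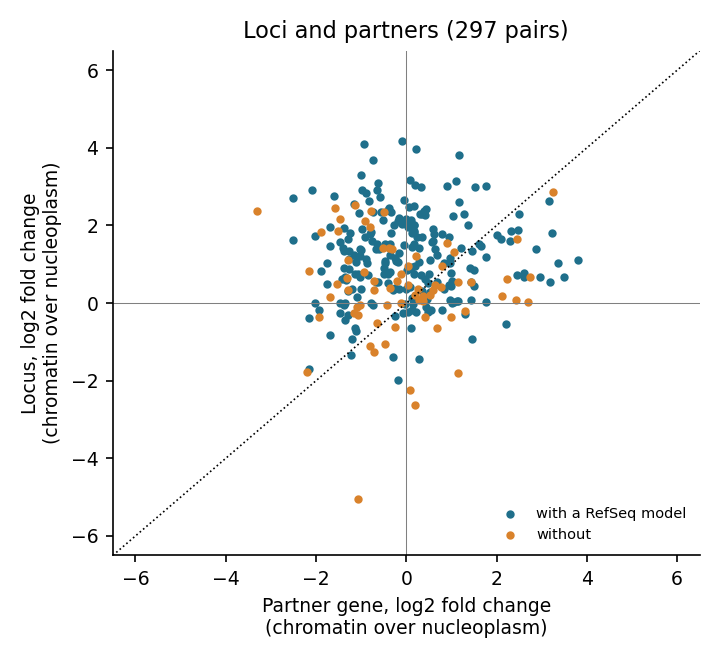
Log2 fold change of chromatin over nucleoplasm of each divergent locus (vertical axis) against that of its partner gene (horizontal axis) for 297 pairs, with colours for loci with and without a RefSeq model and a dotted line of equality. The cloud lies mostly above zero on the locus axis, is spread on both sides of zero on the partner axis, and shows no slope (rho 0.0153).

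Loci of up to 500 bp were set apart by replicate 3 of both fractions. Among loci with a mean of at least 10, the 61 short ones had a median log2 ratio of replicate 3 to the mean of replicates 1 and 2 of 1.68 in chromatin and 1.16 in nucleoplasm, and 49 of them (80.3%) were over 2-fold higher in chromatin replicate 3. The 140 longer loci had a median of -0.16 in both fractions, and 14 (10%) were over 2-fold higher. Of the 61, 59 had no RefSeq model. Other assembled loci of up to 500 bp outside GENCODE genes showed less of this, with medians of 0.3 and 0.35 over 1105 rows and 33.3% over 2-fold in chromatin. Short rows of the whole table had medians of 0.17 and 0.22 over 2357 rows and 22.1% over 2-fold in chromatin. The 312 bp locus opposite Ddx19a is an example, with 206, 192 and 972 normalized counts in chromatin and 127, 98.3 and 247 in nucleoplasm. The 380 bp locus opposite Polr3e, a subunit gene of RNA polymerase III, had 400, 248 and 1231 against 191, 123 and 291. The division at 500 bp was chosen after the values were seen. Cell type markers also moved with this replicate. The summed level of the 6 measured atrial cardiomyocyte markers of 8 listed was 234255, 228936 and 128587 in chromatin and 116155, 125207 and 61636 in nucleoplasm, and that of the 4 fibroblast markers was 120627, 135555 and 173752 against 259124, 253737 and 460521. Smooth muscle markers, 3 measured of 4 listed, summed to 76295, 79372 and 50479 against 198857, 202666 and 146734. Most of that sum was Acta2 (75780, 78944 and 49701 in chromatin). Cnn1 and Myh11 went the other way and were highest in replicate 3 of both fractions. Cnn1 had 48.8, 47.2 and 73.9 against 187, 183 and 323, and Myh11 467, 380 and 704 against 385, 345 and 868. Endothelial markers summed to 1049 to 2934 and leukocyte markers to 39.4 to 159, with Cdh5 and Adgre1 listed at 0. The part of any of these in the difference at short loci was not tested. Without both replicate 3 libraries, 120 of 323 loci above 0 were higher (37.2%) and 13 lower (4.02%), against 31.2% and 25.4% of all rows.

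**Figure D5:**
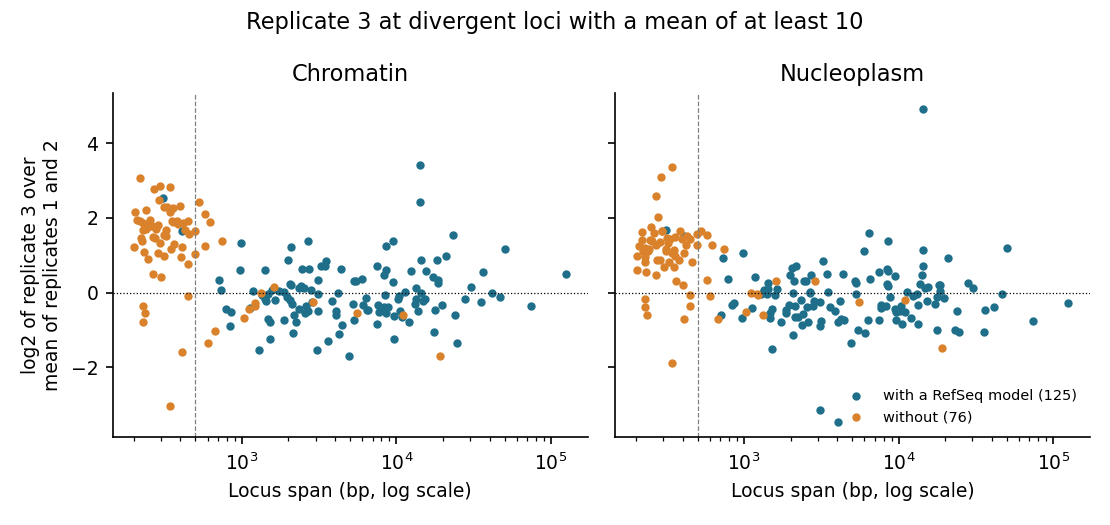
Log2 ratio of replicate 3 to the mean of replicates 1 and 2 against the span of the locus (log axis, bp) in chromatin (left) and nucleoplasm (right), for the 201 divergent loci with a mean of at least 10, with a dashed line at 500 bp. Loci left of the line have medians of 1.68 and 1.16 and mostly lack a RefSeq model, and loci right of it have medians of -0.16 in both panels.

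Long reads from chromatin covered most loci, but less often as transcripts of their own. Of the 332 loci, 287 (86.4%, 95% Wilson interval 82.3 to 89.7) shared bases with a long-read transcript above 0 on either strand, and 231 (69.6%, 64.4 to 74.3) with one on their own strand. The same shares over all rows were 75.6% and 69.9%. A transcript on the locus's strand that did not touch the partner was present at 138 loci (41.6%). Because the long-read table also quantifies these RefSeq models, a match can reflect the model rather than a new assembly. Transcripts with an assembler's name, rather than a RefSeq one, lay on the strand of 133 loci (40.1%), namely 83 of the 252 with a model and 50 of the 80 without. In the 231 loci with a same-strand transcript, the best match covered a median of 98% of the joint span, and 130 matched over at least 90%, a figure that RefSeq models shared by both tables can set. Same-strand overlap rose with the short-read level, from 55.8% of 95 loci at 1 to 10 normalized counts in chromatin to 71.8% of 156 at 10 to 100 and 87.7% of 65 above 100. These intervals cover counting error only.

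The named loci differed in what long reads showed. At Vars the same-strand transcripts summed to 30.9 and 31.5 TPM in the 2 libraries and the best match had exactly the locus's span. At Abcg2 a single model of exactly the locus's span had 16.2 and 10.2 TPM. Ccne2 had 17.5 and 12.1 TPM over 3 transcripts, Bicra 18.4 and 29.1 TPM over 1 that matched 97.1% of the joint span, and Med26 3.7 and 1.63 TPM. At Ntf5 a transcript of 1088 and 553 TPM shared bases with the locus but only 0.493% of the joint span, so this value is not a level of the locus. The Ankhd1 and 1700064H15Rik loci had no long-read transcript on their strand. At Jagn1 the same-strand transcript, of 19.6 and 24.7 TPM, had nearly the span of the Jagn1 gene itself. Direct cDNA libraries are not stranded, so the strand of a long-read transcript can be uncertain.

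Genes that act on divergent RNA were measured as well, as the RNA of these genes in the 2 fractions and not as protein. Of 24 measured genes of the nuclear exosome and its adaptors, 4 were higher in chromatin and 11 lower in the fit over genes, in which 25.8% of all genes were higher and 32.2% lower, with a list median of -0.13. The exosome subunit genes Exosc4 and Exosc9 fell (-1.55 ± 0.11 and -1.30 ± 0.10), and the adaptor and cofactor genes moved both ways: Zfc3h1 and Zcchc8 rose (2.53 ± 0.09 and 1.58 ± 0.15), and Rbm7, Ncbp2 and C1d fell (-0.74 ± 0.13, -1.74 ± 0.18 and -1.13 ± 0.11). Of 14 genes of the Integrator complex, which ends unproductive transcription, 5 were higher and 4 lower, with the largest rise at Ints6 (2.22 ± 0.10). Of the 3 U1 snRNP protein genes, Snrnp70 rose (0.63 ± 0.13), and Snrpa and Snrpc fell (-0.85 ± 0.10 and -2.34 ± 0.14). Cleavage, polyadenylation and termination genes numbered 18, with 8 higher and 5 lower, among them the exonuclease gene Xrn2 (1.30 ± 0.19). Of 12 genes of pausing and elongation, 3 were higher, among them the cyclin gene Ccnt2 (2.76 ± 0.09), and 9 lower, including 4 NELF subunit genes. Of the cell line's atrial markers, Actc1 had 19074 to 37852 normalized counts and Nppa 10.4 to 113, and no row was matched for Myh6 or Tnnt2. Of 26 measured cardiac transcription factor genes, 10 were higher and 6 lower, beside the same 25.8% and 32.2% of all genes.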

How the data were processed

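Short-read RNA-seq measured chromatin and nucleoplasm RNA of HL1 cells in 3 libraries each, and long-read cDNA sequencing measured chromatin RNA in 2. Groups were taken from the sample titles, since 1 label field names chromatin for every library. The authors aligned stranded 50 bp reads to mm10 (hisat2, version 2.1.0 per the labels), ran guided StringTie assembly, merged the assemblies, counted with prepDE and deposited gene counts divided by DESeq2's size factors, a signal on a linear scale. The authors deposited long-read values as TPM after minimap2 and StringTie. Dividing each short-read value by the smallest step of its library gave whole counts for 100% of values (tolerance 0.001). These recovered counts summed to 91657034 to 121773350 per library, 3 libraries per fraction limit precision, and no long-read depth was derived from the TPM values.

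The main test was limma 3.58.1 (R 4.3.3) with a trend on log2(normalized count + 1) over rows above 0 in at least 1 library, Benjamini-Hochberg adjusted at 0.05, which understates changes of low loci. Partner genes were fitted after rows of a GENCODE gene were summed. Tested on simulated data with 200 changed rows, this fit recovered 97% of 8-fold and 10.5% of 2-fold changes. Far more rows were called in the data, where the adjustment is therefore less strict, so these shares are not the fit's power here. edgeR 4.0.16 and DESeq2 1.42.0 on the recovered counts were alternatives. Same-numbered libraries correlated in their deviations from the fraction means (r = 0.119, 0.102 and 0.249, against -0.158 to 0.0631 for other pairs), so the numbers were taken as pairs and a replicate block was an alternative. Named loci were the 10 with the highest mean, the 6 largest rises and 6 largest falls (adjusted p under 0.05, mean of at least 50, same direction in all 3 pairs), loci of cardiac factors with a mean of at least 10, and those at the limits of the rule; further loci were named after their values were seen: Ddx19a, Polr3e, Mef2c and the second Syne2 locus. The loci and gene lists were chosen with earlier results of these data known. No columns were left unused (0). Coordinates are mm10, and sequences are RefSeq's for GRCm38.p6.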

Additional observations from a re-analysis of the deposited data

How the results depend on the processing

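With 1 library left out, higher calls ranged from 80 to 101, lower calls from 8 to 11, calls over 4-fold from 53 to 58 up and from 2 to 5 down, and the median locus-to-partner difference from 0.95 (without chromatin replicate 3) to 1.25 (without nucleoplasm replicate 3). Quantile normalization gave 50 higher and 19 lower calls, 23 and 8 of them over 4-fold, and ERCC scaling gave 5 lower calls, with 105 higher and 1 lower over 4-fold. A 2-fold limit gave 95 and 10. Loci with a RefSeq model held 3 of the lower calls and 0 over 4-fold. edgeR gave 80 higher (24.1%) and 9 lower (2.71%) calls, against 21.6% and 21.4% of all rows, and DESeq2 89 (26.8%) and 10 (3.01%), against 24.1% and 21.4%. The replicate block gave 125 (37.7%) and 11 (3.31%), against 28.8% and 23.6%. Among named loci the block ended the Sspn call and gained 1700064H15Rik, and it changed no other.

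The locus-to-partner difference of 1.14 became 1.40 with a pseudocount of 0.1, 0.85 where both means were at least 10, 1.20 for head-to-head pairs and 0.91 under ERCC scaling, so its size depends on low counts. The replicate block gave 132 higher and 34 lower ratios against 112 and 24. Long-read overlap of 86.4% became 69.6% on the same strand, 51.8% outside the partner, 72.6% over at least 0.5 of the span, 72.0% in both libraries and 79.8% without either library. The rule found 206 loci within 500 bp, 198 head to head and 201 with a mean of at least 10. The Ntf5 locus, at -0.32, reversed to 0.42 under ERCC scaling and to 0.24 without chromatin replicate 1, and reached -0.78 without chromatin replicate 3. The causes were not tested. Of the named loci's other values, 292 kept direction and call, 12 lost the call and 6 gained it. In simulated data with 200 changed rows of 35280, 10.5% of 2-fold changes were recovered. The data gave 9632 higher and 7477 lower rows, so their adjustment was less strict and this share is not their power.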

Other observations

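On chromosome X, outside the autosomal rule, 10 assembled loci met the other criteria. The locus opposite Tceal9 had 93.5, 63.9 and 53.1 normalized counts in chromatin and 14.1, 19.2 and 19.6 in nucleoplasm (log2 fold change 1.91 ± 0.32, limma adjusted p = 0.00359), and the groups did not overlap. That opposite Slc6a8, the creatine transporter gene, had 66.1, 65 and 97.8 against 38.4, 36 and 32.6 (1.05 ± 0.26, adjusted p = 0.0161). The loci opposite Gripap1 and Tceal1 also passed the test. The most abundant, opposite Zrsr2, did not (710, 691 and 541 against 862, 831 and 653; -0.27 ± 0.16, adjusted p = 0.233). The short locus opposite Cox7b had its highest value of each fraction in replicate 3, with 51.8, 88 and 484 against 85.9, 95.9 and 301.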
